A study of Mus musculus with 6 samples.

Results

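Apoe, the gene of apolipoprotein E, was described across 5 cell classes of the mouse hippocampus: microglia, astrocytes, oligodendrocytes, oligodendrocyte precursors and neurons. It is 1 gene of the 32285 listed in the deposited matrices. Apoe was chosen by its levels in these same cells, which differed between the classes and between the groups of mice, so its levels and folds are given as descriptions, with no test. The files pair the symbol with ENSMUSG00000002985, which lies on the minus strand of chr7:19696109-19699188 in GRCm38 and has 4 exons in the annotated transcript used here.

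The study gave 6-month-old 5×FAD mice either PBS or Aβ3FTnAu, which the series title describes as a protein-gold nanostructure directed at amyloid-β plaques, and gave their WT littermates PBS. The groups are written here as 5×FAD-PBS, 5×FAD-Aβ3FTnAu and WT-PBS, with 2 libraries each, and no WT mice given Aβ3FTnAu were analysed here. 5×FAD mice are a transgenic model of Alzheimer's disease, with transgenes driven in neurons by the Thy1 promoter, and they form amyloid plaques. Both 5×FAD groups carry the transgenes, so they differ by the agent alone as far as the labels state. The labels do not say whether the 2 libraries of a group came from separate mice, so every p-value measures the spread between libraries, which may be technical.

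Apolipoprotein E is the main lipid carrier that brain cells secrete. ABCA1 and ABCG1 load it with cholesterol and phospholipid, and neurons and glia take the particles up through receptors of the LDL receptor family. Astrocytes make most of it in the healthy brain, and microglia near amyloid plaques raise it strongly as part of a response that depends on the receptor TREM2. The protein also binds amyloid-β, and its human alleles are the best known common genetic factor in late-onset Alzheimer's disease.

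The libraries were made with a droplet method that tags the 3′ end of each mRNA, so a count is a number of unique molecular identifiers (UMIs), a quantity that does not scale with gene length. Levels are UMIs per 1000000 UMIs (CPM) of all barcodes of a class in a library, summed. Of 50224 barcodes, 41656 (82.9%) were kept, between 4637 and 12152 a library, with median depths of 3957 to 5131 UMIs. Each pair of libraries shared 9 to 45 barcode sequences, at most 0.561% of the smaller library. The 2 WT-PBS libraries stood further apart than the others: over genes, chi-square per degree of freedom between the 2 libraries of a group was 6.61 for 5×FAD-PBS, 9.53 for 5×FAD-Aβ3FTnAu and 74.4 for WT-PBS. Barcodes without a single mitochondrial UMI made up 23.0% and 17.8% of the 5×FAD-PBS libraries, 66.8% and 64.6% of the 5×FAD-Aβ3FTnAu libraries, and 58.1% and 29.8% of the WT-PBS libraries, so this property moved with the groups.

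Classes were set by UMIs of marker genes, and each was checked with other markers that took no part in setting it. In microglia, 8 such genes, among them the complement genes C1qb and C1qc, the protease Ctss and the signalling adaptor Tyrobp, summed to 2412 to 7956 CPM over the 6 libraries. In astrocytes, 10 such genes, among them the glutamate transporter Slc1a2 and the lipoprotein Clu, summed to 10653 to 15003 CPM. In oligodendrocytes, 7 such genes, among them the myelin genes Mbp and Cnp, summed to 5511 to 7838 CPM. The astrocyte genes summed to only 92.2 to 225 CPM in microglia, 176 to 330 CPM in oligodendrocytes and 182 to 207 CPM in neurons. They were higher in precursors, at 721 to 1618 CPM, so that class carried more astrocyte transcript than the others. A library held between 40 and 306 microglia, 39 and 611 astrocytes, 229 and 796 oligodendrocytes, 108 and 410 precursors, and 3417 and 9594 neurons.

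In CPM, Apoe was highest in astrocytes in 5 of the 6 libraries and lowest in neurons in all 6. Raw UMIs per barcode grow with depth. On that scale, neurons of 5×FAD-Aβ3FTnAu library 2 held 0.402 against 0.390 in oligodendrocytes, at median depths of 5718 and 1320 UMIs. The orders that follow are in CPM. What changed between the groups was the place of microglia. In both WT-PBS libraries the order was astrocytes, precursors, oligodendrocytes, microglia, neurons. In both 5×FAD-PBS libraries microglia stood second, behind astrocytes, and precursors and oligodendrocytes followed. In 5×FAD-Aβ3FTnAu library 1 microglia stood above astrocytes, and in library 2 just below them, with oligodendrocytes above precursors in both.

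**Figure D1:**
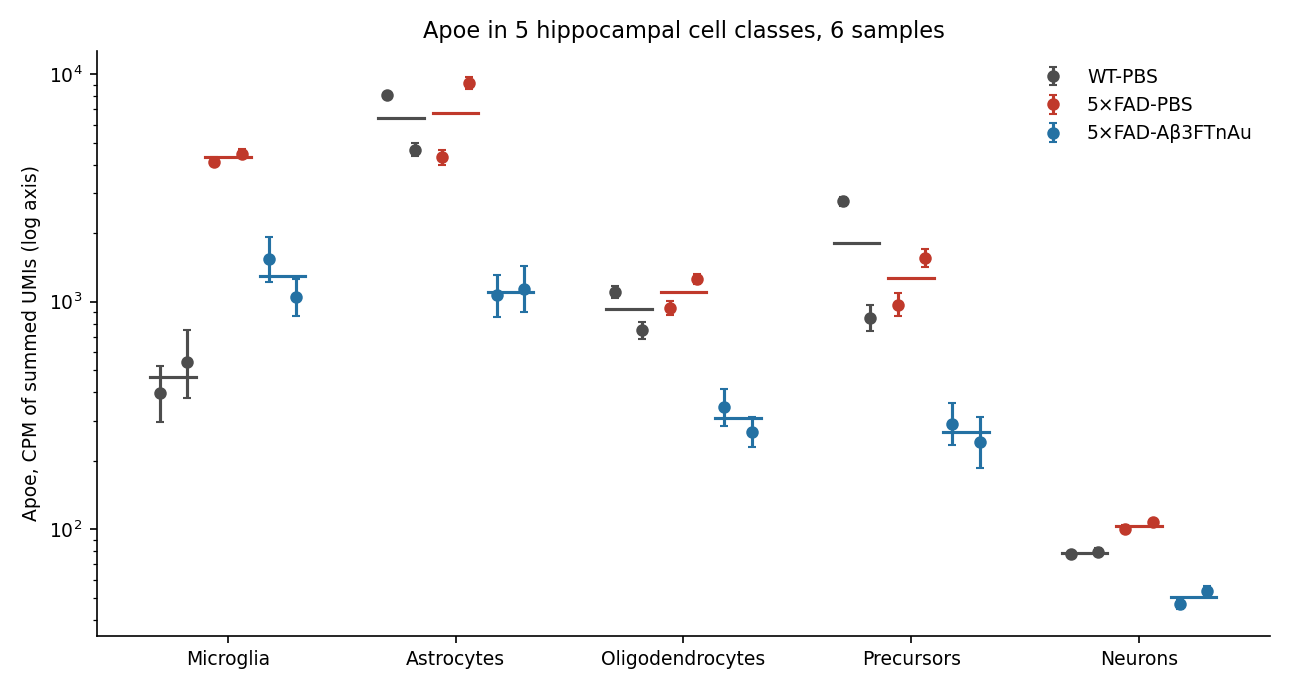
Apoe level in CPM on a log axis for each of the 5 classes, with 1 point per library, its exact 95% Poisson interval as an error bar and the group mean as a horizontal line. The 5×FAD-Aβ3FTnAu points lie below the 5×FAD-PBS points in every class, and the WT-PBS points are the lowest of the 3 groups in microglia alone.

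Neighbouring classes in that order were often not separated beyond their spread. In 5×FAD-PBS, the mean was 6713 ± 3396 CPM (SD, n = 2) in astrocytes and 4301 ± 250 CPM (SD, n = 2) in microglia, and the astrocytes' lower library lay between the 2 microglia values. Precursors (1266 ± 416 CPM) and oligodendrocytes (1097 ± 221 CPM) overlapped as well. In 5×FAD-Aβ3FTnAu, microglia (1297 ± 347 CPM) overlapped with astrocytes (1103 ± 52.0 CPM), and oligodendrocytes (307 ± 54.4 CPM) with precursors (267 ± 33.8 CPM). In WT-PBS, astrocytes (6384 ± 2440 CPM) did not overlap with precursors (1802 ± 1348 CPM), which overlapped with oligodendrocytes (926 ± 251 CPM). Microglia of WT-PBS (468 ± 103 CPM) lay below both, and neurons (78.6 ± 1.14 CPM) lay below every other class there, as they did in 5×FAD-PBS (103 ± 5.00 CPM) and 5×FAD-Aβ3FTnAu (50.2 ± 4.79 CPM).

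Microglia are the brain's resident immune cells. Their Apoe level was 4124 and 4478 CPM in the 5×FAD-PBS libraries, 1542 and 1052 CPM in the 5×FAD-Aβ3FTnAu libraries, and 396 and 541 CPM in the WT-PBS libraries. The 3 groups did not overlap, with 5×FAD-PBS highest and WT-PBS lowest. Of the 3300 genes tested in microglia, 8.55% passed an adjusted p of 0.05 between 5×FAD-PBS and WT-PBS, 1.03% between 5×FAD-Aβ3FTnAu and 5×FAD-PBS, and 6.48% between 5×FAD-Aβ3FTnAu and WT-PBS (edgeR's quasi-likelihood test with Benjamini-Hochberg adjustment). These shares are the background, and nothing is read from Apoe against them. The SE given with each log2 difference of Apoe comes from this same fit. Apoe was chosen by these levels, so no test is read from its SE. The mean was 9.19-fold higher in 5×FAD-PBS than in WT-PBS, a fitted log2 difference of 3.23 ± 0.27 (SE). It was 3.32-fold lower in 5×FAD-Aβ3FTnAu than in 5×FAD-PBS (log2 -1.77 ± 0.24), and still 2.77-fold higher than in WT-PBS (log2 1.45 ± 0.27). Few cells stand behind the smaller values: 40 and 81 microglia in the 5×FAD-Aβ3FTnAu libraries, and 102 and 52 in the WT-PBS libraries, which gave 52 and 36 Apoe UMIs. The exact 95% Poisson interval, which covers counting error only, was 1219 to 1924 CPM and 867 to 1263 CPM for the 5×FAD-Aβ3FTnAu libraries, and 295 to 519 CPM and 379 to 749 CPM for the WT-PBS libraries.

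The share of microglia with an Apoe UMI followed the same order. With each barcode thinned to 1000 UMIs, 73.1% and 71.2% of 5×FAD-PBS microglia, 45.0% and 48.1% of 5×FAD-Aβ3FTnAu microglia, and 31.4% and 40.4% of WT-PBS microglia held at least 1. Before thinning these shares were 79.9% and 77.8%, 55.0% and 55.6%, and 38.2% and 42.3%. Neurons, which are not a known main source of Apoe in the resting brain, gave thinned shares of 4.91% to 11.4%, and unthinned shares of 18.8% to 43.3% at median depths of 4590 to 6417 UMIs, against 1148 to 1299 UMIs in microglia. Among the microglia of 5×FAD-PBS, single barcodes reached 47 and 41 Apoe UMIs, against 12 in either 5×FAD-Aβ3FTnAu library and 4 and 10 in WT-PBS.

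A level can also be set against other transcripts of the same cells. Apoe gave 66.6 and 67.0 UMIs per 100 UMIs of the 8 microglial reference genes in 5×FAD-PBS, 63.9 and 42.4 in 5×FAD-Aβ3FTnAu, and 4.97 and 16.98 in WT-PBS. On this scale the first 5×FAD-Aβ3FTnAu library lay close to the 5×FAD-PBS libraries. The reference genes themselves summed to 6188 and 6685 CPM in 5×FAD-PBS, 2412 and 2481 CPM in 5×FAD-Aβ3FTnAu, and 7956 and 3185 CPM in WT-PBS, and 7 of the 8 were lower in both 5×FAD-Aβ3FTnAu libraries than in both 5×FAD-PBS libraries. The means of 5×FAD-PBS were 1.19 (Lgmn) to 5.17 (C1qb) times those of 5×FAD-Aβ3FTnAu, with a median of 2.73, against 3.32 for Apoe. The part of that lower reference level in the Apoe difference was not tested.

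Microglia that contact plaques switch on a set of genes that includes Cst7, Lpl, Itgax, Spp1 and Gpnmb. Of a list of 12 such genes, 11 were in the files, and Clec7a was not matched. With barcodes thinned to 1000 UMIs, 74.3% and 63.4% of 5×FAD-PBS microglia held at least 1 UMI of this list, against 47.5% and 53.1% in 5×FAD-Aβ3FTnAu and 6.86% and 9.62% in WT-PBS. In 5×FAD-PBS, barcodes with a plaque-list UMI held a mean of 5.23 and 6.32 Apoe UMIs, and those without held 1.70 and 1.38. In 5×FAD-Aβ3FTnAu the means were 2.42 and 1.49 with a plaque-list UMI, and 0.429 and 0.421 without. Apoe was higher in microglia with a plaque-list UMI in all 4 5×FAD libraries. The 5×FAD-Aβ3FTnAu means without such a UMI rest on 9 and 16 Apoe UMIs. In WT-PBS the 7 and 5 barcodes with such a UMI gave 0.429 and 0.400, and the others 0.389 and 0.638, which were not distinguishable at this depth. The split of cells rests on UMIs of the same barcodes as Apoe, so it describes these cells and gives no comparison of conditions.

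**Figure D2:**
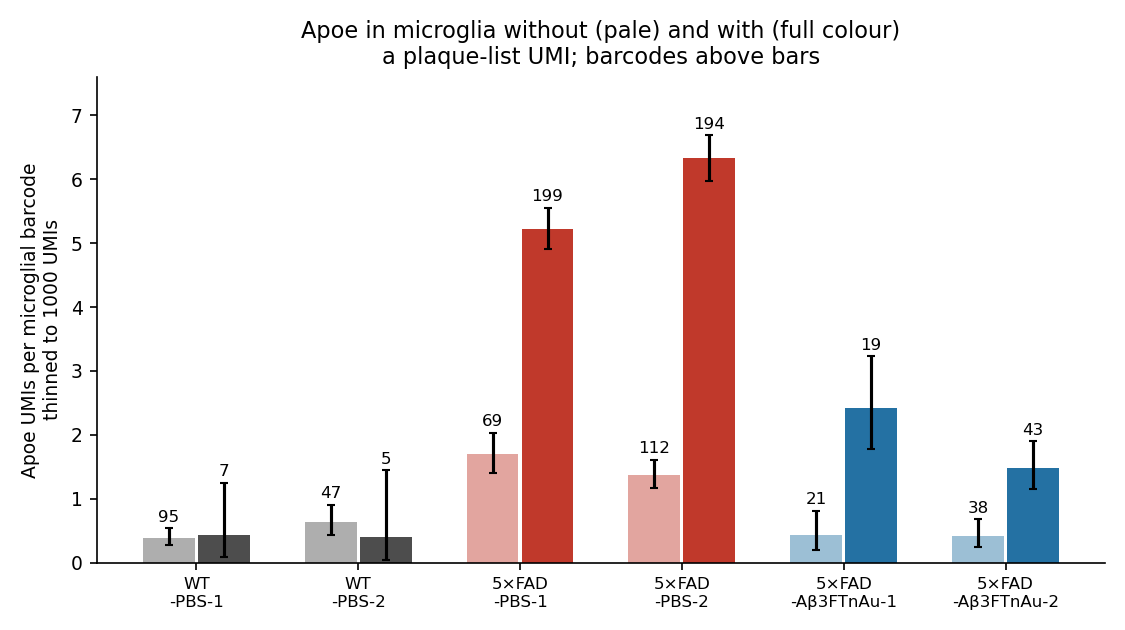
Mean Apoe UMIs per microglial barcode, each thinned to 1000 UMIs, in barcodes without and with a UMI of the plaque list, for each library, with exact 95% Poisson intervals. Barcodes with such a UMI stand higher in the 4 5×FAD libraries, at 1.49 to 6.32 against 0.421 to 1.70.

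Border and perivascular macrophages share many markers with microglia and were kept apart by their own markers, such as Mrc1, Pf4 and Cd163. There were 1 to 5 such barcodes a library. They held 80 and 8 Apoe UMIs in 5×FAD-PBS, 9 and 0 in 5×FAD-Aβ3FTnAu (0 of 1709 UMIs, which allows up to 1755 CPM), and 207 and 24 in WT-PBS, where library 1 reached 32988 CPM from 5 barcodes. When they were counted with microglia, the WT-PBS microglial level rose to 1880 and 850 CPM. The log2 ratio of 5×FAD-PBS to WT-PBS then went from 3.20 to 1.67, and that of 5×FAD-Aβ3FTnAu to WT-PBS from 1.47 to -0.073. The difference between treated and WT microglia in Apoe therefore depends on where 8 WT-PBS barcodes are placed, whereas 5×FAD-PBS stayed highest either way.

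Astrocytes support neurons and regulate transmitter, water and lipid supply. Their Apoe level was 4311 and 9114 CPM in 5×FAD-PBS, 1066 and 1140 CPM in 5×FAD-Aβ3FTnAu, and 8109 and 4659 CPM in WT-PBS. Both 5×FAD-Aβ3FTnAu libraries lay below all 4 others, and the 2 PBS groups overlapped. Of 3218 genes tested in astrocytes, 0.0622% passed between 5×FAD-PBS and WT-PBS, 0.0932% between 5×FAD-Aβ3FTnAu and 5×FAD-PBS, and 0.715% between 5×FAD-Aβ3FTnAu and WT-PBS. The mean was 6.09-fold lower in 5×FAD-Aβ3FTnAu than in 5×FAD-PBS (log2 -2.68 ± 0.31) and 5.79-fold lower than in WT-PBS (log2 -2.60 ± 0.31). Between the PBS groups the fitted log2 difference was 0.07 ± 0.28, and its sign depended on the library left out, with a log2 ratio of means from -0.57 without 5×FAD-PBS library 2 to 0.53 without WT-PBS library 1. So in astrocytes the PBS groups were not separated by their libraries, whereas in microglia every 5×FAD-PBS library lay above every WT-PBS library.

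Almost every astrocyte of the PBS groups held Apoe. At 1000 UMIs a barcode, 93.3% and 98.4% of 5×FAD-PBS and 98.4% and 92.0% of WT-PBS astrocytes held an Apoe UMI, against 64.3% and 61.5% in 5×FAD-Aβ3FTnAu. Without thinning, the mean was 9.16 and 16.6 Apoe UMIs a barcode in 5×FAD-PBS, 1.55 and 1.92 in 5×FAD-Aβ3FTnAu, and 13.3 and 8.51 in WT-PBS. Other astrocyte transcripts were lower in 5×FAD-Aβ3FTnAu too, by less. Of the 10 reference genes, 7 were lower in both 5×FAD-Aβ3FTnAu libraries than in all 4 PBS libraries, and the means of 5×FAD-PBS were 1.002 to 3.70 times those of 5×FAD-Aβ3FTnAu, with a median of 1.71, against 6.09 for Apoe. The highest were Mlc1 at 3.70, Clu at 3.24, Gpr37l1 at 2.499 and Mfge8, a secreted glycoprotein, at 2.14, and the lowest was Slc1a2. The high ratios rest on few UMIs in the 5×FAD-Aβ3FTnAu libraries. These were 2 and 6 of Mlc1, 23 and 18 of Clu, 10 and 9 of Gpr37l1, and 5 and 6 of Mfge8. The 10 genes summed to 11039 and 15003 CPM in 5×FAD-PBS, 10834 and 10653 CPM in 5×FAD-Aβ3FTnAu, and 12929 and 12756 CPM in WT-PBS. Per 100 of their UMIs, Apoe gave 39.1 and 60.7, then 9.84 and 10.7, then 62.7 and 36.5, in the same order of groups. Slc1a2 made up 40.7% to 66.5% of that sum. Per 100 UMIs of the other 9 genes, a scale added after the values were seen, Apoe gave 89.9 and 130 in 5×FAD-PBS, 29.4 and 31.1 in 5×FAD-Aβ3FTnAu, and 106 and 91.02 in WT-PBS, so 5×FAD-Aβ3FTnAu was lowest on both scales, with a smaller gap on the second. The part of the lower astrocyte transcripts in the Apoe difference was not tested. The 5×FAD-Aβ3FTnAu values rest on 56 and 39 astrocytes with 87 and 75 Apoe UMIs, for exact 95% Poisson intervals of 854 to 1315 CPM and 897 to 1429 CPM.

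Oligodendrocytes make myelin. Their Apoe level was 941 and 1253 CPM in 5×FAD-PBS, 345 and 268 CPM in 5×FAD-Aβ3FTnAu, and 1104 and 749 CPM in WT-PBS. As in astrocytes, the 5×FAD-Aβ3FTnAu libraries were the lowest pair and the PBS groups overlapped. Of 9010 genes tested, 0.244% passed between 5×FAD-PBS and WT-PBS, 0.133% between 5×FAD-Aβ3FTnAu and 5×FAD-PBS, and 2.89% between 5×FAD-Aβ3FTnAu and WT-PBS. The mean was 3.58-fold lower in 5×FAD-Aβ3FTnAu than in 5×FAD-PBS (log2 -1.89 ± 0.20) and 3.02-fold lower than in WT-PBS (log2 -1.60 ± 0.20), and the fitted log2 difference between the PBS groups was 0.29 ± 0.19. The 7 oligodendrocyte reference genes summed to 6955 and 7838 CPM in 5×FAD-PBS, 7798 and 7710 CPM in 5×FAD-Aβ3FTnAu, and 5511 and 6330 CPM in WT-PBS. Per 100 of their UMIs Apoe gave 13.5 and 15.98 in 5×FAD-PBS, 4.43 and 3.48 in 5×FAD-Aβ3FTnAu, and 20.03 and 11.8 in WT-PBS, so the 5×FAD-Aβ3FTnAu libraries were the lowest on this scale too. Mbp made up 43.8% to 66.5% of the sum, and without it Apoe gave 30.5 and 33.4, 13.2 and 9.64, and 35.6 and 28.2 per 100 UMIs. Of the 7 genes, 2 (Trf and Qdpr) were lower in both 5×FAD-Aβ3FTnAu than in both 5×FAD-PBS libraries, and the median ratio of 5×FAD-PBS to 5×FAD-Aβ3FTnAu means was 1.01.

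Precursors are the dividing cells that renew oligodendrocytes. Their Apoe level was 971 and 1560 CPM in 5×FAD-PBS, 290 and 243 CPM in 5×FAD-Aβ3FTnAu, and 2756 and 849 CPM in WT-PBS. The 5×FAD-Aβ3FTnAu libraries were again below the other 4, and the WT-PBS libraries lay on either side of 5×FAD-PBS. Of 5962 genes tested, 0.0168% passed between 5×FAD-PBS and WT-PBS, 0.0168% between 5×FAD-Aβ3FTnAu and 5×FAD-PBS, and 0.436% between 5×FAD-Aβ3FTnAu and WT-PBS. The mean was 4.75-fold lower in 5×FAD-Aβ3FTnAu than in 5×FAD-PBS (log2 -2.28 ± 0.43) and 6.76-fold lower than in WT-PBS (log2 -2.77 ± 0.43). Without WT-PBS library 1, the log2 ratio of 5×FAD-Aβ3FTnAu to WT-PBS was -1.67, and that of 5×FAD-PBS to WT-PBS turned from -0.51 to 0.58. Committed precursors, set by Gpr17, Bmp4, Neu4 and Enpp6, held 88.0 to 645 CPM in 5 libraries, each below the precursors of its library, over 5 to 32 barcodes. In 5×FAD-Aβ3FTnAu library 1 they held 0 Apoe UMIs of 20485, which allows up to 146 CPM (3 counts).

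Neurons made up 73.7% to 86.0% of the kept barcodes. Their Apoe level was 99.96 and 107 CPM in 5×FAD-PBS, 46.9 and 53.6 CPM in 5×FAD-Aβ3FTnAu, and 77.8 and 79.4 CPM in WT-PBS. The groups did not overlap, with 5×FAD-PBS highest and 5×FAD-Aβ3FTnAu lowest. Of 19920 genes tested in neurons, 0% passed in each of the 3 comparisons, with 1303, 4367 and 6767 genes at an unadjusted p under 0.05 between 5×FAD-PBS and WT-PBS, 5×FAD-Aβ3FTnAu and 5×FAD-PBS, and 5×FAD-Aβ3FTnAu and WT-PBS, where DESeq2 called 35, 1437 and 3592. The mean was 1.32-fold higher in 5×FAD-PBS than in WT-PBS (log2 0.37 ± 0.10), 2.06-fold lower in 5×FAD-Aβ3FTnAu than in 5×FAD-PBS (log2 -1.05 ± 0.10) and 1.56-fold lower than in WT-PBS (log2 -0.68 ± 0.10). These folds were smaller than in any glial class with separated groups, and these differences between classes were not tested.

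A small number of neurons held many Apoe UMIs. Those with 10 or more numbered 30 and 31 in 5×FAD-PBS, 10 and 24 in 5×FAD-Aβ3FTnAu, and 29 and 6 in WT-PBS, which is 0.138% to 0.878% of neurons. They were also deeper than the remaining neurons, so the number depends on depth. Their median depth was 12965 and 10805 UMIs in 5×FAD-PBS, 69418 and 111050 in 5×FAD-Aβ3FTnAu, and 15431 and 11165 in WT-PBS, against 4585 to 6387 for the rest. They held 3.50% to 24.8% of the neurons' Apoe UMIs. Their microglial reference genes were higher than in the remaining neurons of the same library in all 6, by 5.71 against 1.17 and 7.11 against 1.34 UMIs per 10000 in 5×FAD-PBS. Their astrocyte reference genes were higher in the 4 PBS libraries, by as much as 18.4 against 2.19 UMIs per 10000 in WT-PBS library 2, but not in 5×FAD-Aβ3FTnAu, at 1.67 against 1.77 and 1.64 against 1.96. Without these barcodes, the neuronal level was 85.0 and 91.1 CPM in 5×FAD-PBS, 41.3 and 43.9 CPM in 5×FAD-Aβ3FTnAu, and 70.7 and 76.9 CPM in WT-PBS, in the same order of groups.

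Droplets also take up RNA that is free in the suspension, so a class that does not express a gene still shows some of it. Free RNA carries all transcripts of a source class at a like ratio, and Apoe was therefore set beside the 10 astrocyte reference genes, each as a percentage of its own level in the astrocytes of the same library. In neurons, Apoe stood at 2.32% and 1.17% of its astrocyte level in 5×FAD-PBS, 4.39% and 4.71% in 5×FAD-Aβ3FTnAu, and 0.960% and 1.71% in WT-PBS. The median reference gene stood at 0.481% to 0.804%. Of the 10 reference genes, 7 and 7, 10 and 10, and 6 and 8 lay below Apoe in these libraries, so in the PBS groups Apoe lay within the range of these genes. In raw UMIs per neuron, 9 of the 10 lay below Apoe in each of the 6 libraries. Slc1a2 lay above it, at 0.770 to 1.15 UMIs per neuron against 0.265 to 0.786 for Apoe. Measured against microglia instead, Apoe in neurons stood at 2.42% and 2.39% in 5×FAD-PBS, 3.04% and 5.10% in 5×FAD-Aβ3FTnAu, and 19.7% and 14.7% in WT-PBS, with 6 and 6, 4 and 7, and 8 and 8 of the 8 microglial reference genes below it.

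**Figure D3:**
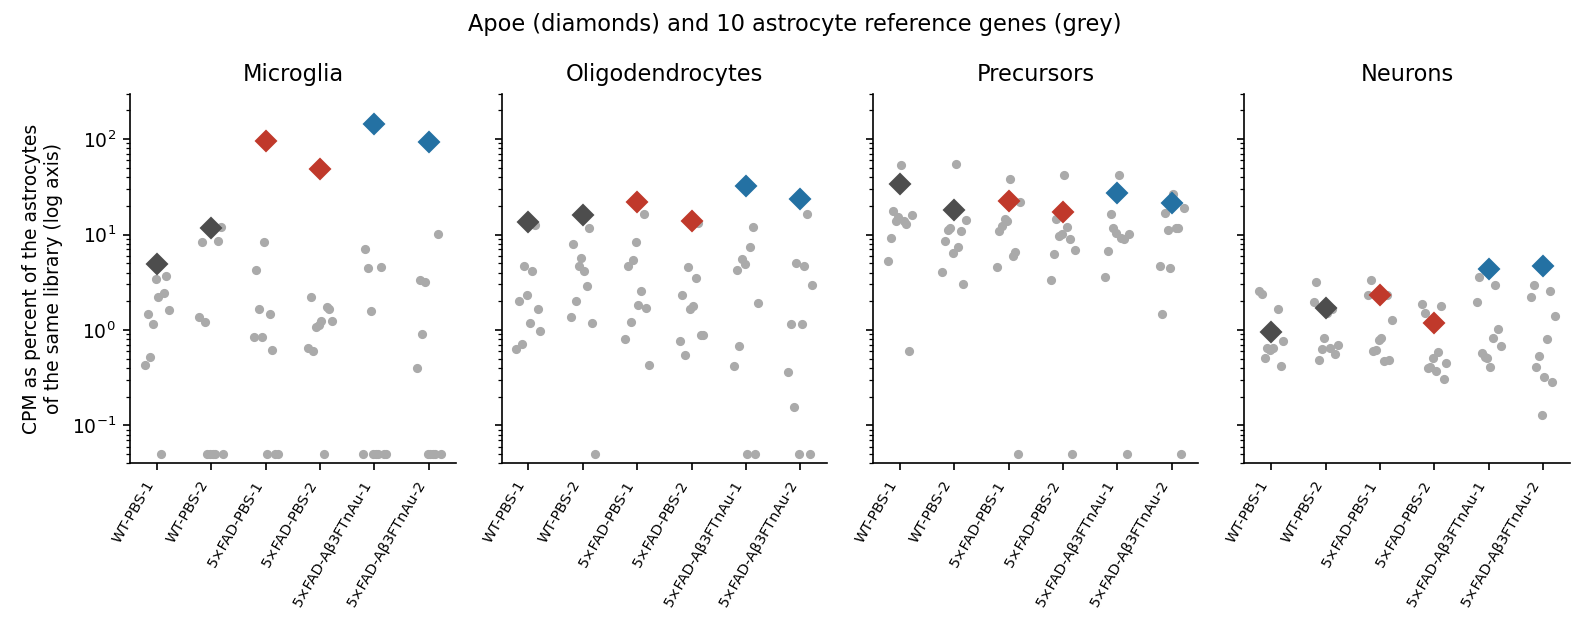
Level of Apoe and of the 10 astrocyte reference genes in microglia, oligodendrocytes, precursors and neurons, as a percentage of the same gene's level in the astrocytes of that library, on a log axis with values under 0.05% drawn at 0.05%. Diamonds are Apoe, coloured by group, and grey points are the reference genes. Apoe lies above all 10 reference genes in oligodendrocytes in the 6 libraries, and among them in the neurons of the 4 PBS libraries.

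The astrocyte and microglial sources can be added. Oligodendrocytes, which also held Apoe, were left out here and in the sum for precursors, so the sum is not the whole carried amount. In neurons the median oligodendrocyte reference gene stood at 1.67% to 4.27% of its oligodendrocyte level. The sum of astrocytes and microglia was chosen after the values had been seen. Apoe carried from astrocytes and microglia, each at its median reference ratio, came to 104 and 126 CPM in the neurons of 5×FAD-PBS, 53.7 and 42.4 CPM in 5×FAD-Aβ3FTnAu, and 62.0 and 45.3 CPM in WT-PBS. The measured neuronal level was 0.960 and 0.846 times this amount in 5×FAD-PBS, 0.873 and 1.27 times in 5×FAD-Aβ3FTnAu, and 1.26 and 1.76 times in WT-PBS. At the highest reference ratio in place of the median, it was 0.339 to 0.592 times the carried amount. How much of the neuronal Apoe was the neurons' own transcript cannot be told apart from carried RNA by these ratios, so no difference in expression by neurons is read from its levels.

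In oligodendrocytes Apoe stood well above what these ratios gave at the median. It was 13.6% to 32.4% of its astrocyte level, and all 10 astrocyte reference genes lay below it in all 6 libraries. The closest was Htra1, a secreted protease, at 11.7% to 16.4%. The measured level was 3.36 and 3.33 times the summed median amount in 5×FAD-PBS, 1.82 and 2.25 times in 5×FAD-Aβ3FTnAu, and 6.93 and 3.82 times in WT-PBS, and 0.667 to 1.26 times the amount at the highest ratios. In precursors Apoe was 17.1% to 34.0% of its astrocyte level, with 9 of the 10 reference genes below it. Gpr37l1, a receptor, was the exception at 26.6% to 54.2%. The measured level there was 1.20 to 2.42 times the summed median amount, and 0.329 to 0.631 times at the highest ratios. How much of the Apoe in oligodendrocytes and precursors was their own transcript cannot be told apart from carried RNA by these ratios alone. Microglia of the same WT-PBS libraries held less Apoe, at 396 and 541 CPM. Oligodendrocytes there held 1104 and 749 CPM, and precursors 2756 and 849 CPM. In the 5×FAD libraries microglia held more than either class. Whether the WT-PBS microglial level bounds the carried RNA of the other classes was not tested.

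Relative to astrocytes, the level in microglia ranged most widely over the groups. It stood at 95.6% and 49.1% of its astrocyte level in 5×FAD-PBS, 145% and 92.3% in 5×FAD-Aβ3FTnAu, and 4.88% and 11.6% in WT-PBS. All 10 astrocyte reference genes lay below it in 5 libraries, and 9 of 10 in WT-PBS library 2. There Mlc1, a membrane protein of astrocyte endfeet, stood at 11.9%, from 1 microglial UMI. In WT-PBS, microglia thus held less Apoe than oligodendrocytes, which stood at 279% and 138% of the microglial level there. Apoe carried into WT-PBS microglia from astrocytes, at the median reference ratio, came to 126 and 28.3 CPM, and the measured level was 3.14 and 19.1 times that amount. At the highest reference ratio it was 1.34 and 0.973 times, against 11.4 and 22.2 times in 5×FAD-PBS and 20.6 and 9.12 times in 5×FAD-Aβ3FTnAu. That highest ratio rested on 1 microglial UMI in each WT-PBS library (Mlc1) and in each 5×FAD-Aβ3FTnAu library (Clu, then Mlc1). In 5×FAD-PBS it rested on 4 UMIs of Mfge8 and 12 of Clu. How much of the WT-PBS microglial level, which is the denominator of the 9.19-fold difference, was carried RNA cannot be told apart by these ratios.

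Treated libraries held more barcodes without a mitochondrial UMI, so levels were also taken separately in barcodes with and without one. Apoe was lower in both 5×FAD-Aβ3FTnAu libraries than in both 5×FAD-PBS libraries in each of the 5 classes, in both kinds of barcode. In barcodes without a mitochondrial UMI the means differed 3.80-fold in microglia, 3.72-fold in astrocytes, 3.74-fold in oligodendrocytes, 5.84-fold in precursors and 2.09-fold in neurons. In barcodes with one they differed 2.49-fold, 5.61-fold, 3.14-fold, 5.17-fold and 1.68-fold in the same order. Some of these means rest on few barcodes. 5×FAD-PBS library 2 had 3 astrocytes and 7 precursors without a mitochondrial UMI, with 27 and 29 Apoe UMIs. 5×FAD-Aβ3FTnAu library 1 had 12 microglia with one, which held 44 Apoe UMIs. The difference between 5×FAD-PBS and WT-PBS in microglia was 9.16-fold and 8.50-fold, without and with a mitochondrial UMI. Within a library, astrocytes with a mitochondrial UMI held more Apoe than those without in all 6 libraries, neurons in 5, microglia in 4, and oligodendrocytes and precursors in 2 each.

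**Figure D4:**
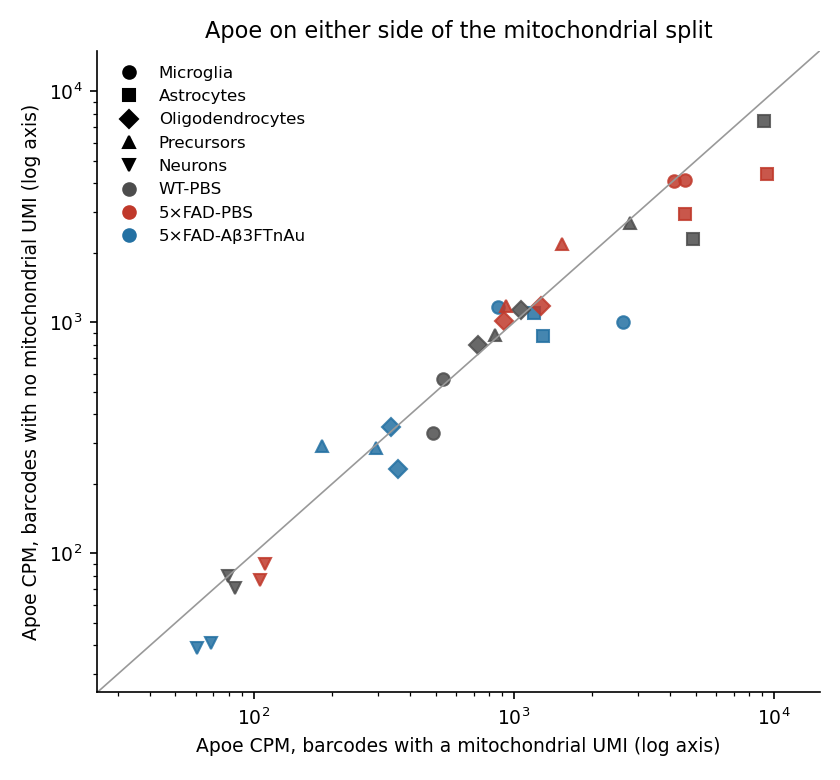
Apoe level in CPM in barcodes with a mitochondrial UMI (horizontal, log axis) against that in barcodes without one (vertical, log axis), 1 point for each class (shape) and library (colour by group), with the line of equal levels. For each class the 5×FAD-Aβ3FTnAu points lie left of and below the 5×FAD-PBS points, and the 6 astrocyte points lie below the line.

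Over whole libraries, Apoe came to 234 and 274 CPM in 5×FAD-PBS, 60.7 and 66.6 CPM in 5×FAD-Aβ3FTnAu, and 286 and 139 CPM in WT-PBS. A class's part in this depends on its number of barcodes, its RNA per barcode and its level. Microglia held 23.8% and 18.9% of all Apoe UMIs in 5×FAD-PBS with 5.78% and 4.16% of the barcodes, 3.80% and 4.70% in 5×FAD-Aβ3FTnAu with 0.610% and 1.46% of the barcodes, and 0.297% and 0.844% in WT-PBS with 0.839% and 0.961% of the barcodes. Microglia were thus over-represented among Apoe UMIs in both 5×FAD groups and under-represented in WT-PBS. Astrocytes held 9.95% and 10.5% in 5×FAD-PBS, 4.23% and 3.09% in 5×FAD-Aβ3FTnAu, and 46.5% and 19.96% in WT-PBS, where they were 5.03% and 1.85% of barcodes. Neurons held 38.9% and 35.1%, 72.8% and 75.9%, and 24.7% and 52.3%, through their number. All 4 glial classes together held 48.9% and 48.5%, 18.0% and 17.2%, and 64.8% and 37.9%. These shares follow the numbers of barcodes captured, which differed between the 2 libraries of a group, up to 611 against 100 astrocytes in WT-PBS.

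**Figure D5:**
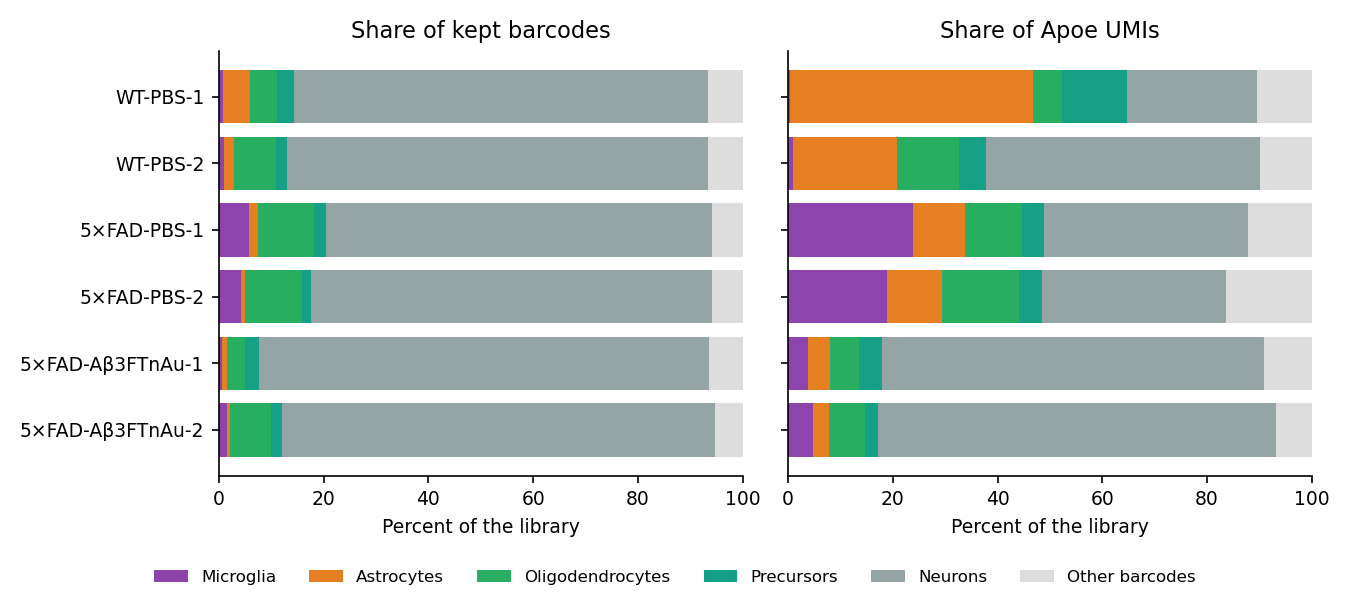
Percentage of each library's kept barcodes (left) and Apoe UMIs (right) in each class, as stacked bars from 0 to 100%. Pale grey marks all barcodes outside these classes, those with macrophage or committed precursor markers among them. Microglia hold 23.8% and 18.9% of Apoe UMIs in 5×FAD-PBS and 0.297% and 0.844% in WT-PBS.

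Genes whose levels went most like those of Apoe were ranked by Pearson's r of log2(CPM + 10) over the 30 sums of 5 classes and 6 libraries, among 10854 genes. Sums of 1 library share its depth and its free RNA, and sums of 1 class share its identity, so r is a description. Cd63, a tetraspanin of late endosomes and lysosomes, came first at 0.92, with mean levels of 319 CPM in microglia, 286 in astrocytes, 174 in oligodendrocytes, 125 in precursors and 17.7 in neurons. Sdf2 followed at 0.85, then Tsc22d4, the transcription factor Tcf7l2 and the cytokine Il18 at 0.84 each, and Son, an RNA-processing protein, at 0.82. Hsd17b12, a fatty-acid elongation enzyme, Sat1, a polyamine enzyme, Ccdc62 and the glutamate transporter Slc1a3 closed the 10 at 0.80 each. Slc1a3 is among the markers that set the astrocyte class, so its place here follows in part from the classes.

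The genes that act with Apoe were read from lists of lipid carriers, lipid loading and efflux, receptors, nuclear regulators, and lipid uptake and storage. In microglia, 15 of 52 members other than Apoe were abundant enough to test. Between 5×FAD-PBS and WT-PBS, 2 of them rose and 1 fell, beside 160 genes that rose and 122 that fell among the 3300 tested. Between 5×FAD-Aβ3FTnAu and 5×FAD-PBS, 1 of the 15 fell and none rose, beside 10 that rose and 24 that fell in all. In the first comparison, 6 of the 15 and 731 of the 3300 genes had an unadjusted edgeR p under 0.05. In the second, 4 of the 15 and 341 of the 3300 had one.

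Lpl, a lipase that releases fatty acids from lipoproteins and one of the plaque-list genes, was at 249 and 230 CPM in 5×FAD-PBS microglia, 119 and 101 CPM in 5×FAD-Aβ3FTnAu, and 0 and 15.02 CPM in WT-PBS, where 0 UMIs in library 1 allow up to 22.8 CPM. The WT-PBS value is 1 UMI in all, against 197 in 5×FAD-PBS, for a ratio of 47.3 with an exact 95% counting interval of 8.39 to 1877. It rose in 5×FAD-PBS against WT-PBS (edgeR adjusted p = 2.03e-05) and was the 1 listed gene whose call was kept in all alternatives run.

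Trem2, the lipid-sensing receptor of microglia that binds lipoproteins, was at 1108 and 1066 CPM in 5×FAD-PBS microglia, 198 and 240 CPM in 5×FAD-Aβ3FTnAu, and 745 and 120 CPM in WT-PBS. It rose in 5×FAD-PBS against WT-PBS by 1.13 ± 0.33 on the log2 scale (edgeR adjusted p = 0.0389) and fell by 2.29 ± 0.41 in 5×FAD-Aβ3FTnAu against 5×FAD-PBS (edgeR adjusted p = 0.00426). The 2 WT-PBS libraries lay far apart, and without WT-PBS library 2 the first difference was 0.56 (edgeR adjusted p = 0.0813). DESeq2 called neither, at adjusted p of 0.827 and 0.9999. Trem2 is also 1 of the 8 microglial reference genes, which were lower as a list in 5×FAD-Aβ3FTnAu.

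Ptgds, a lipophilic carrier and prostaglandin D synthase, was at 251 and 162 CPM in 5×FAD-PBS microglia, 316 and 240 CPM in 5×FAD-Aβ3FTnAu, and 357 and 391 CPM in WT-PBS. It fell by 0.85 ± 0.26 on the log2 scale in 5×FAD-PBS against WT-PBS (edgeR adjusted p = 0.0488), a call lost without any 1 of the PBS libraries and with DESeq2 (adjusted p = 0.533). Its mean level was 2033 CPM in oligodendrocytes, and the oligodendrocyte reference genes summed to 240 to 791 CPM in microglia. The part of oligodendrocyte RNA in its microglial level was not tested. In oligodendrocytes themselves Ptgds was at 2036 and 2366 CPM in 5×FAD-PBS, 857 and 698 CPM in 5×FAD-Aβ3FTnAu, and 4448 and 1796 CPM in WT-PBS. There it fell by 1.54 ± 0.27 in 5×FAD-Aβ3FTnAu against 5×FAD-PBS (edgeR adjusted p = 0.0315), a call lost without 5×FAD-PBS library 2 or either 5×FAD-Aβ3FTnAu library.

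Trem2 rose in oligodendrocytes too, at 49.6 and 39.8 CPM in 5×FAD-PBS, 27.3 and 26.99 CPM in 5×FAD-Aβ3FTnAu, and 8.04 and 11.8 CPM in WT-PBS (log2 difference of 5×FAD-PBS from WT-PBS 2.22 ± 0.38, edgeR adjusted p = 0.0251). These are 87 UMIs against 15, for a ratio of 4.52 with an exact 95% counting interval of 2.60 to 8.43. Trem2 is a gene of microglia, and the microglial reference genes summed to 192 to 354 CPM in oligodendrocytes. Their part in this difference was not tested, and the call was lost without either 5×FAD-PBS library or either 5×FAD-Aβ3FTnAu library.

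Listed genes were tested in astrocytes (17), precursors (19) and neurons (49), and none passed in either comparison. Over all genes, 0.0622% and 0.0932% passed in astrocytes, 0.0168% in each comparison in precursors and 0% in neurons. With shares this low, nothing is read about the listed genes. Clu, the other main lipoprotein of astrocytes, was at 527 and 1272 CPM in 5×FAD-PBS astrocytes, 282 and 274 CPM in 5×FAD-Aβ3FTnAu, and 1029 and 542 CPM in WT-PBS. Its libraries ranked like those of Apoe, with 5×FAD-Aβ3FTnAu below all 4 others, and its difference from 5×FAD-PBS missed the threshold (log2 -1.75 ± 0.41, edgeR adjusted p = 0.144). Of the genes of loading and efflux, 2 were tested in microglia, Abca1 and Abcg1. Neither passed in either comparison, beside 8.55% and 1.03% of all genes tested there. Abca1 was at 314 and 401 CPM in 5×FAD-PBS microglia, 494 and 443 CPM in 5×FAD-Aβ3FTnAu, and 449 and 300 CPM in WT-PBS, with both 5×FAD-Aβ3FTnAu libraries above both 5×FAD-PBS libraries and WT-PBS overlapping with 5×FAD-PBS and with 5×FAD-Aβ3FTnAu. Its log2 difference was -0.13 ± 0.24 between 5×FAD-PBS and WT-PBS (edgeR adjusted p = 0.801) and 0.35 ± 0.25 between 5×FAD-Aβ3FTnAu and 5×FAD-PBS (edgeR adjusted p = 0.687). In astrocytes it was at 257 and 249 CPM, 282 and 258 CPM, and 192 and 274 CPM in the same order of groups. Abcg1 was at 131 and 141 CPM in 5×FAD-PBS microglia, 119 and 101 CPM in 5×FAD-Aβ3FTnAu, and 137 and 135 CPM in WT-PBS, with 5×FAD-Aβ3FTnAu below the other 4 libraries on 17 UMIs (log2 difference from 5×FAD-PBS -0.36 ± 0.37, edgeR adjusted p = 0.799).

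Receptors and lysosomal genes gave values of the same kind. Mylip, a ligase that marks LDL receptors for breakdown, was at 387 to 506 CPM in microglia. Npc2, which hands lysosomal cholesterol to Npc1, was at 216 and 262 CPM in 5×FAD-PBS microglia, 178 and 138 CPM in 5×FAD-Aβ3FTnAu, and 137 and 150 CPM in WT-PBS, with 5×FAD-PBS above all 4 other libraries (log2 difference from WT-PBS 0.75 ± 0.30, edgeR adjusted p = 0.128). The uptake receptor Lrp1 had a mean of 310 CPM in microglia, 303 CPM in precursors and 171 CPM in astrocytes, and the sorting receptors Sort1 and Sorl1 led in neurons at 148 and 142 CPM. Srebf2, which drives cholesterol synthesis, was the leading nuclear regulator in astrocytes, oligodendrocytes, precursors and neurons, at 113, 93.1, 46.0 and 57.4 CPM, and Ppard led in microglia at 114 CPM. Npc1, which moves cholesterol out of lysosomes, had a mean of 171 CPM in oligodendrocytes, 135 CPM in precursors and 126 CPM in microglia. In astrocytes, the median log2 difference of 5×FAD-Aβ3FTnAu from 5×FAD-PBS was 0.34 over 3 tested lipid carriers, 0.20 over 2 genes of loading and efflux, -0.24 over 6 receptors, 0.19 over 2 nuclear regulators and 0.34 over 4 genes of uptake and storage, and -0.01 over all 3218 genes tested. In microglia it was 0.58 over 2 carriers, -0.01 over 2 genes of loading and efflux, -0.20 over 6 receptors, 0.09 for 1 nuclear regulator and -0.57 over 4 genes of uptake and storage, and 0.01 over all 3300 genes.

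Apoe lies in a cluster of apolipoprotein genes. On the same strand, Apoc1 (chr7:19689481-19692660), Apoc4 (chr7:19678083-19681479) and Apoc2 (chr7:19671579-19677941) lie downstream of it, and Tomm40 (chr7:19701313-19715438), a subunit of the mitochondrial import pore, lies upstream, in GRCm38 coordinates. None of the 8 neighbours examined was abundant enough to test in microglia or astrocytes. Clptm1 and Tomm40, which are expressed in most cells, had means of 48.8 and 31.1 CPM in microglia and 38.4 and 21.5 CPM in astrocytes. In oligodendrocytes 3 neighbours were tested, in precursors 2 and in neurons 5, and none passed in either comparison. Over all genes, 0.244% and 0.133% passed in oligodendrocytes, 0.0168% in each comparison in precursors and 0% in neurons, so nothing is read about the neighbours.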

How the data were processed

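The matrices that the authors deposited hold UMI counts per gene and barcode for 6 libraries, and per the file headers Cell Ranger 7.1.0 wrote them. The submitters' processing notes name mm10 and Seurat 4.3.0.1, and the counting of introns is not stated there. Apoe and the gene lists were chosen with earlier results of these data known. One gene of the oligodendrocyte reference list is not reported here, and the sums are over the other 7.

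Barcodes with at least 500 genes, 1000 UMIs and at most 15% mitochondrial UMIs were kept. Library totals ran from 32528417 to 76780861 UMIs. Scrublet (scanpy 1.11.5) scored doublets. The threshold it set by itself marked 0.0207% to 17.9% of barcodes, so the highest scores were removed instead, at 0.8% per 1000 barcodes of the library, 3080 in all. A glial class needed 30 of its marker UMIs per 10000, from at least 4 UMIs and 3 genes, fewer than 20 of every other glial class and fewer than 60 of neurons. Neurons needed 75. Barcodes that met no rule, 4.99% to 6.32% of a library, were left out of the classes.

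Counts were summed per library and class and fitted with edgeR 4.0.16 in R 4.3.3 (TMM, filterByExpr, quasi-likelihood test, all 6 libraries), with DESeq2 1.42.0 as an alternative. Benjamini-Hochberg adjustment ran over all genes of a class. The SE of a fitted log2 difference is its size divided by the square root of the quasi-likelihood F. For Apoe it describes the fit alone. The fit was tested on simulated data. Intervals are exact (Poisson or Clopper-Pearson) at 95% and cover counting error only. Shares were thinned to 1000 UMIs a barcode. Genes named were Apoe, the reference genes, pathway-list members past the threshold or among the highest of their list in a class, and the 10 genes most like Apoe. Coordinates are from GENCODE's GRCm38 annotation. Other alternatives were another normalization, no low-count filter, each library left out, doublets kept, stricter markers, looser filters, barcodes split by mitochondrial UMIs, and macrophages counted as microglia.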

Additional observations from a re-analysis of the deposited data

Results flagged for a closer look

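Against WT-PBS, Apoe in 5×FAD-Aβ3FTnAu went one way in microglia and the other way in the remaining classes. The log2 ratio of mean CPM was 1.47 in microglia, where both treated libraries were above both WT-PBS libraries. It was -2.53 in astrocytes, -1.59 in oligodendrocytes, -2.76 in precursors and -0.65 in neurons, where both treated libraries were below both WT-PBS libraries. The difference between the classes was not tested, and the microglial ratio was -0.073 when macrophage-marker barcodes were counted with microglia.

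Barcodes with macrophage markers enter none of the 5 classes, and in 3 libraries the exact 95% Poisson interval of their Apoe level lay wholly above that of the microglia of the same library. The level was 6084 CPM in 5×FAD-PBS library 1 (4 barcodes), 32988 CPM in WT-PBS library 1 (5 barcodes) and 5972 CPM in WT-PBS library 2 (3 barcodes).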

How the results depend on the processing

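Of 153 alternative values of the Apoe ratio between groups, 141 moved by less than 1 SD between libraries and 12 by more. The sign changed in 7: in 4 for astrocytes, 1 for oligodendrocytes and 1 for precursors, all for 5×FAD-PBS to WT-PBS, where the groups overlap, and in 1 for microglia. With macrophages counted as microglia, the microglial log2 ratio was 1.67 for 5×FAD-PBS to WT-PBS and -0.073 for 5×FAD-Aβ3FTnAu to WT-PBS. In barcodes with a mitochondrial UMI, the ratio of 5×FAD-Aβ3FTnAu to 5×FAD-PBS was -1.32 in microglia and -0.75 in neurons, and to WT-PBS -0.35 in neurons. In barcodes without one, neurons gave 0.15 for 5×FAD-PBS to WT-PBS and -0.91 for 5×FAD-Aβ3FTnAu to WT-PBS. Neurons gave 0.32 for 5×FAD-PBS to WT-PBS both with doublets kept and with stricter markers, -0.79 for 5×FAD-Aβ3FTnAu to WT-PBS with doublets kept, and -1.29 and -0.94 for 5×FAD-Aβ3FTnAu to 5×FAD-PBS and to WT-PBS as means of single-barcode CPM. Median shares of barcodes with an Apoe UMI were 55.3%, 98.0%, 65.3%, 83.5% and 32.8% unthinned in microglia, astrocytes, oligodendrocytes, precursors and neurons. With microglia as the source, Apoe stood at a median of 26.7% in oligodendrocytes and 4.07% in neurons. The cause of these changes was not tested.

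Counts of genes called depended much more on the setting. Between 5×FAD-PBS and WT-PBS, the counts were 282 in microglia, 2 in astrocytes, 22 in oligodendrocytes, 1 in precursors and 0 in neurons. Leaving out 1 library at a time gave 91 to 444, 0 to 169, 3 to 1023, 0 to 675 and 0 to 6133. The highest of each came without WT-PBS library 2. In microglia the count was 91 without 5×FAD-PBS library 1, 132 without 5×FAD-PBS library 2, 158 without WT-PBS library 1 and 428 without 5×FAD-Aβ3FTnAu library 2, and in oligodendrocytes 3 without either 5×FAD-Aβ3FTnAu library, 4 without either 5×FAD-PBS library and 110 without WT-PBS library 1. DESeq2 called 61 in microglia, 0 in astrocytes, 4 in oligodendrocytes and 35 in neurons. Without the low-count filter it was 52 in astrocytes, 224 in oligodendrocytes and 150 in precursors. Barcodes without a mitochondrial UMI gave 109 in microglia, 1 in astrocytes and 4 in oligodendrocytes, and those with one 106 in microglia and 0 in astrocytes. The looser filter gave 484 in microglia, 0 in astrocytes and 12 in oligodendrocytes. Astrocytes had 0 with the other normalization and with stricter markers, and precursors 0 with doublets kept.

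Between 5×FAD-Aβ3FTnAu and 5×FAD-PBS, the counts were 34, 3, 12, 1 and 0 in the same order of classes. Leaving out 1 library gave 27 to 117, 0 to 43, 0 to 285, 0 to 125 and 0 to 5987. Without WT-PBS library 1 they were 117, 43, 285, 125 and 5987, and without WT-PBS library 2 110, 42, 272, 116 and 5987; the lone WT-PBS library was then assumed to vary like the others. DESeq2 called 10 in microglia, 4 in oligodendrocytes, 0 in precursors and 1437 in neurons. Without the low-count filter it was 24 in astrocytes, 113 in oligodendrocytes, 57 in precursors and 115 in neurons. Barcodes without a mitochondrial UMI gave 6 in microglia, 0 in astrocytes, 2 in oligodendrocytes and 87 in neurons, and those with one 0 in microglia, 8 in astrocytes and 6 in oligodendrocytes. Oligodendrocytes had 3 with the looser filter, and astrocytes 10 with doublets kept and 1 with stricter markers. The labels do not pair replicate numbers, and deviations of same-numbered libraries from their group means correlated at -0.13 to -0.16 over neuronal genes. With the replicate number as a replicate block, the first comparison gave 0 in astrocytes, and the second 10 in astrocytes and 0 in precursors.

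Depth limits microglia of WT-PBS most, with 52 and 36 Apoe UMIs, and then precursors, astrocytes and microglia of 5×FAD-Aβ3FTnAu, with 60 to 114 a library.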
